A study of Bos taurus with 2 samples.

Results

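The Rab GTPase genes were followed across 2 fractions of bovine raw milk whey. A gene was taken as a member where the array's gene name was RAB, a number and an optional letter and digit with nothing after them, which left out Rab effectors and regulators with longer names. The rule gave 55 genes with 114 probes, of 17073 named genes and 43652 probes in all. Of the 55 genes, 18 had 1 probe and 37 had 2 or more, with a maximum of 4. The accession of 51 members was found in the RefSeq gene table of the ARS-UCD2.0 assembly, where 2 carried another symbol, RAB7L1 (RAB29) and RAB39 (RAB39A).

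The exosome group was the pellet of whey spun at 10000 g for 90 min and washed by further spins, and the supernatant group was the liquid above that pellet. Both came from Holstein raw milk, and no treatment or genotype is given for either. RNA of 3 milks was mixed in equal parts, and each fraction was measured on 1 array, so the pool has no spread between milks and there are no replicates. The labels call the spin ultracentrifugation, and the stated speed is low for pelleting small vesicles, so what the pellet held is uncertain. The name exosome is the submitters', and milk from which cows or stage of lactation is not given in the sources used here. Both samples are bulk RNA of whey fractions, so fewer source cells of a type and less RNA from each cell cannot be told apart.

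Rab proteins are small GTPases that switch between a GTP-bound form on a membrane and a GDP-bound form held in the cytosol. In the GTP-bound form they recruit tethers, motors and other effectors, and each member marks a particular compartment, such as the Golgi, early endosomes or secretory granules. In the mammary gland, milk proteins leave the secreting cell through the ER, the Golgi and secretory vesicles, and fat leaves as droplets wrapped in membrane. Several Rabs take part in the release of exosomes from cultured human and mouse cells, among them RAB27A, RAB27B, RAB35 and RAB11A.

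Most Rab genes were detected in the exosome fraction and few in the supernatant. A gene counted as detected where the scanner software called any of its probes well above background. In the exosome 46 of the 55 genes were detected (83.6%), against 66.5% of all named genes. In the supernatant 9 were detected (16.4%), against 22.2% of all named genes. Of the members, 8 were detected on both arrays (21.1% of all named genes were), 38 on the exosome array alone (45.4%), 1 on the supernatant array alone (1.10%) and 8 on neither (32.4%). By probe, 97 of 114 Rab probes (85.1%) were detected in the exosome and 9 (7.89%) in the supernatant, while the shares over all probes were 58.5% and 13.1%. With 1 array per fraction none of these shares has a replicate error, and no test was possible.

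**Figure D1:**
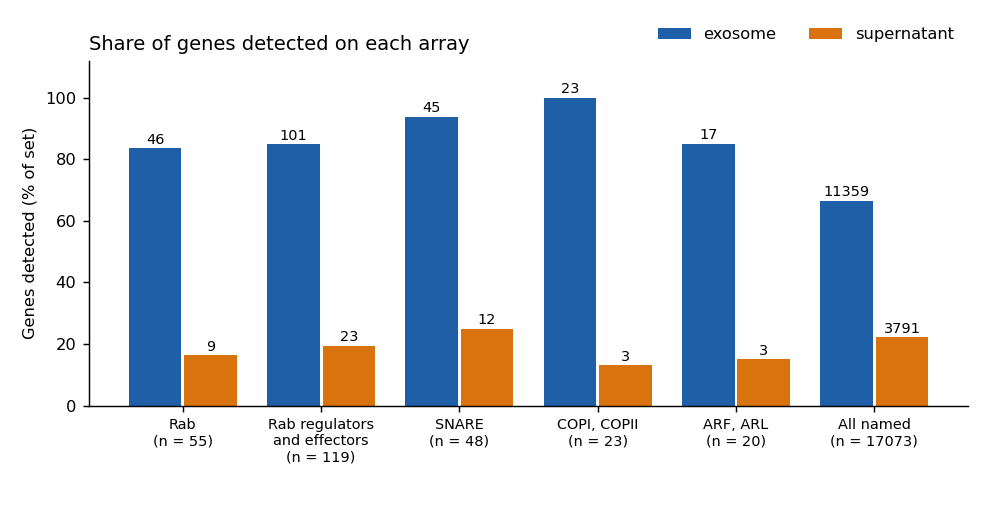
Share of genes detected on each array, in percent of the genes of each set (vertical axis), for the Rab genes, their regulators and effectors, other trafficking families and all named genes; blue bars are the exosome array, orange bars the supernatant array, and the number above a bar is the count of genes. The exosome bar of the Rab genes stands at 46 genes and the supernatant bar at 9.

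The 2 arrays differed in overall brightness. The median gene measured on both was 10.7-fold brighter in the exosome before any scaling (3.42 on the log2 scale, 3538 genes), so differences are given both unscaled and relative to this median gene. A signal is the background-subtracted fluorescence of a 60-base probe in scanner units. The scanner software's own error was 10% to 20.7% of the signal for the Rab probes detected in the exosome and 10.1% to 20.2% for those detected in the supernatant. Among 9 probes printed on 4 spots and detected on both arrays, the log2 difference between fractions had an SD of 0.18 between spots. Different probes of 1 gene varied more, with an SD of 1.71 over 542 genes. The lowest signal called well above background was 11.3 in the exosome and 8.75 in the supernatant. Of 13 markers of the milk-secreting epithelium, 13 were detected in the exosome and 10 in the supernatant, and their detected signals summed to 1356547 in the exosome and 1866 in the supernatant. Of 15 leukocyte markers, 12 were detected in the exosome and 10 in the supernatant, with sums of 3288 in the exosome and 6344 in the supernatant, and CD3E, CXCR2 and ITGAM on neither. LYZ and CD3D made up most of the supernatant sum, and without them, a choice made after their values were seen, the sums were 1968 in the exosome and 332 in the supernatant. The sums take each array's own detected probes, and on the LYZ probe detected on both arrays the signal was 5371 in the exosome against 3575 in the supernatant. Their part in the Rab results was not tested.

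The 9 Rab probes detected in the supernatant carry every statement that can be made on both fractions, so the sequences of 8 of them are shown first. They are the probe designs in the deposited files, 5′ to 3′, with positions from the files in build HGSC Btau_3.1. Capitals mark the motif CCCTC, which is taken up after the values.
RAB25, chr3:16037741-16037800, minus strand: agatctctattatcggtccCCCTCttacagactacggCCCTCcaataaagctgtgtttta
RAB1B, no position in the file: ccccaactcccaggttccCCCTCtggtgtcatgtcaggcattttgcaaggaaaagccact
RAB4B, chr18:49693969-49694028, plus strand: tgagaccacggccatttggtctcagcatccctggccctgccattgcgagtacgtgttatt
RAB30, chr29:13298852-13298911, plus strand: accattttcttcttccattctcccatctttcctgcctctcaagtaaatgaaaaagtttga
RAB27A, chr10:55948828-55948887, plus strand: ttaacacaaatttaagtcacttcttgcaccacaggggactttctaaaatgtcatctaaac
RAB40C, chr25:990842-990901, plus strand: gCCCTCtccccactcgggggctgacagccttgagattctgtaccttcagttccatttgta
RAB6B, chr1:137931286-137931345, plus strand: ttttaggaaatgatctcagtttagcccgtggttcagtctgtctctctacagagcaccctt
RAB3C, chr20:21951703-21951762, minus strand: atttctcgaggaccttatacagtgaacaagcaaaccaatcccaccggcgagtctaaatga

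The 8 genes measured on both arrays ranged from 8.95 to -1.45 in their unscaled log2 difference. RAB25, RAB1B and RAB2A exceeded the median gene by 2-fold or more, RAB6B fell short of it by 2-fold or more, and 4 genes lay between. Under quantile normalization RAB2A was at 0.98 and no longer reached 2-fold. These are 3 genes above and 1 below, where 37.7% of all measured genes lay that far above and 36.7% that far below. Their median difference was 0.57 relative to the median gene and 3.99 unscaled, against 0 and 3.42 over all measured genes. Before scaling, 7 of the 8 were at least 2-fold brighter in the exosome (82.7% of all measured genes were), and 1 was brighter in the supernatant (6.87%).

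RAB25 had the highest difference of the 8. It is an epithelial relative of RAB11 that directs recycling endosomes to the apical surface. Its probe gave 5534 in the exosome against 11.2 in the supernatant, an unscaled difference of 8.95 (495-fold), or 5.54 above the median gene. The supernatant signal was little over the lowest signal called well above background there.

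RAB1B and RAB2A act between the ER and the Golgi. For RAB1B the probe detected on both arrays gave 4879 in the exosome against 56.2 in the supernatant, a difference of 6.44 unscaled and 3.02 above the median gene. For RAB2A the probe gave 5497 in the exosome against 187 in the supernatant, a difference of 4.87 unscaled and 1.46 above the median gene. The RAB2A difference is smaller than the SD between probes of 1 gene, and the RAB1B difference is larger.

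RAB4B, RAB30 and RAB27A lay within 2-fold of the median gene. RAB4B, which returns cargo from early endosomes to the surface, gave 278 in the exosome against 15.6 in the supernatant (4.16 unscaled, 0.74 relative to the median gene). RAB30, a Golgi Rab, gave 329 in the exosome against 23.3 in the supernatant (3.82 unscaled, 0.40 relative). RAB27A, which docks secretory granules, and in human cells multivesicular endosomes, at the plasma membrane, gave 158 in the exosome against 13.4 in the supernatant (3.55 unscaled, 0.14 relative). All 3 were brighter in the exosome before scaling, and their distance from the median gene is smaller than the SD between probes of 1 gene.

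RAB40C carries a SOCS box and acts in ubiquitin ligases. It gave 410 in the exosome against 56.2 in the supernatant, 2.87 unscaled and -0.55 relative to the median gene, also less than the SD between probes.

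RAB6B stood apart from the other 7. RAB6B, a form of the Golgi Rab RAB6 known mainly from the brain, had 1 probe, with 15.6 ± 2.95 in the exosome against 42.7 ± 4.67 in the supernatant (scanner error, 1 array each). The unscaled difference was -1.45, a supernatant signal 2.74-fold that of the exosome, and -4.87 relative to the median gene. The exosome signal was little over the lowest signal called well above background there, 11.3. With a floor 4 times the lowest detected signal, 0 Rab genes lay 2-fold or more below the median gene. Of all measured genes, 1.30% were at least 2-fold brighter in the supernatant before scaling.

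RAB3C was the 1 member detected in the supernatant alone. It belongs to the RAB3 group, which acts in the exocytosis of synaptic vesicles and secretory granules. Its probe at transcript position 2020 gave 8.60 in the exosome, not well above background, against 15.0 in the supernatant, so the supernatant was at least 1.33-fold brighter before scaling. Its probes at positions 453 and 602 were not well above background on either array, with 2.52 and 2.49 in the exosome and 1.96 and 1.94 in the supernatant.

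The direction of most of these genes depended on the scaling. RAB25 and RAB1B were higher in the exosome, and RAB6B lower, unscaled, relative to the median gene and under scaling by spike-in probes, the array median or the 75th percentile. RAB2A, RAB4B, RAB30 and RAB27A turned lower in the exosome when each array was scaled to its 75th percentile over probes detected on both, which subtracts 5.45 and puts RAB2A at -0.58 and RAB27A at -1.90. RAB40C was at -2.59 under that scaling and at -0.63 under the array median, and at 0.60 under the spike-in probes, which subtract 2.27.

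**Figure D2:**
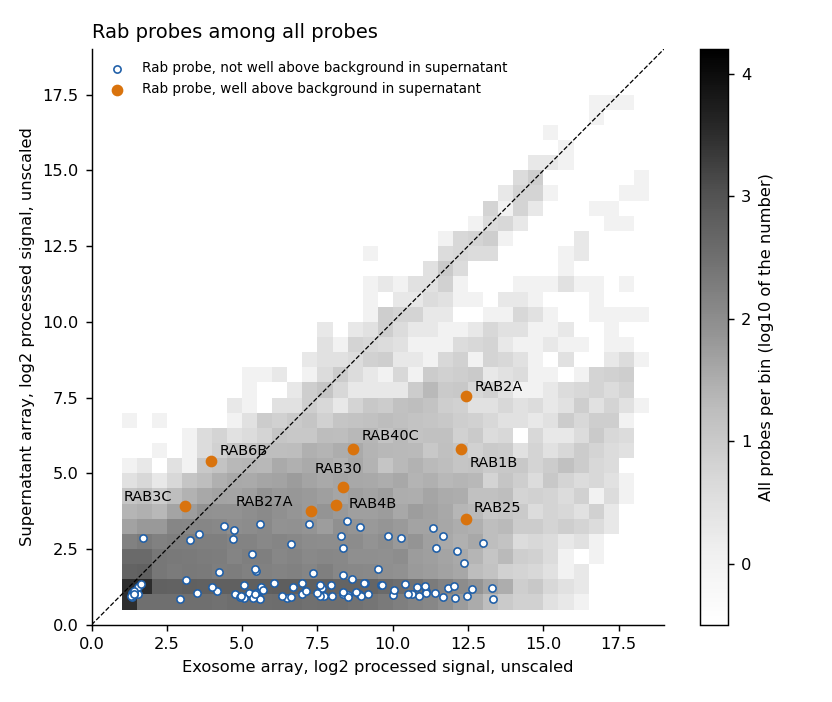
Log2 processed signal on the exosome array (horizontal axis) against the supernatant array (vertical axis), unscaled, with all probes in grey bins (darker is more probes) and the Rab probes as points; filled orange points were well above background in the supernatant, open blue points were not, and the dashed line marks equal signal. RAB6B and RAB3C lie left of the line, at 15.6 and 8.60 in the exosome against 42.7 and 15.0 in the supernatant, and RAB2A is the highest Rab point at 187 in the supernatant.

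For the 38 genes detected in the exosome alone, the supernatant gives only an upper limit. A bound is the exosome signal over the higher of the supernatant signal and the lowest signal called well above background there, averaged over a gene's detected probes on the log2 scale. All 38 bounds were at least 2-fold unscaled (94.5% of all genes detected in the exosome alone reached that), and 23 were at least 2-fold beyond the median gene (40.0%). The median unscaled bound was 30.6-fold for the Rab genes and 14.0-fold for all genes detected in the exosome alone. Counting differences and bounds together, the median over the 46 Rab genes detected in the exosome was 26.5-fold. Over the 11293 named genes detected in the exosome with a difference or bound it was 13.1-fold. Both medians take only genes detected in the exosome, so that choice itself favours values towards the exosome. They also mix measured differences with lower bounds. The median exosome signal of the 46 was 270, against 156 over all named genes detected there, although a signal depends on the probe as well as on the RNA. The bounds grow with the exosome signal, so they carry the same information as its level.

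**Figure D3:**
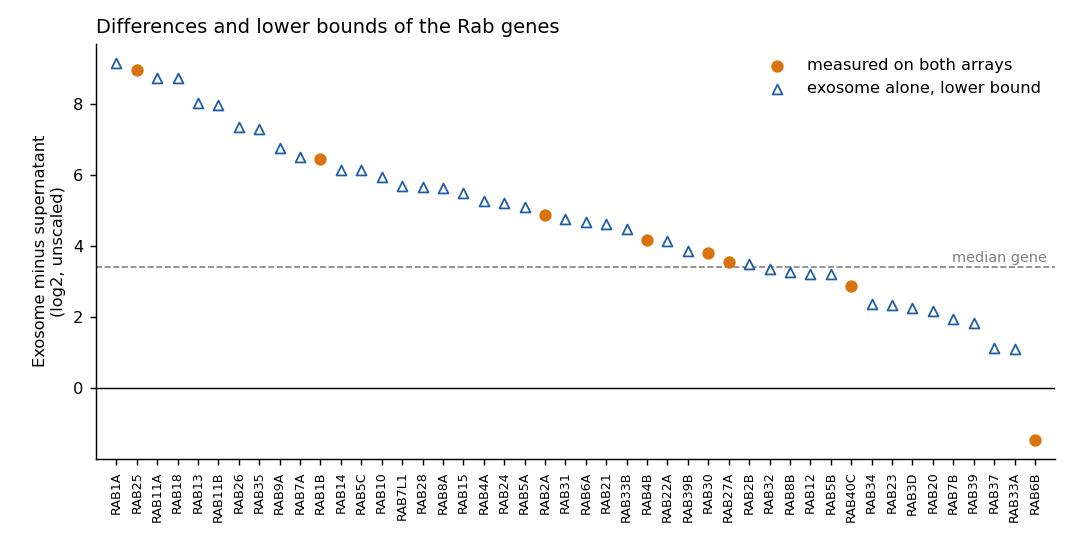
Exosome minus supernatant on the log2 scale, unscaled (vertical axis), for the 46 Rab genes detected on the exosome array, in falling order; filled orange points were measured on both arrays and open blue triangles are lower bounds of genes detected in the exosome alone. RAB1A has the highest bound (575-fold) and RAB6B, at -1.45, is the only point below 0. Of the genes measured on both arrays, RAB6B and RAB40C lie below the dashed median gene at 3.42. Some lower bounds lie below it too, from RAB32 at 3.36 to RAB33A at 1.11, and the side of those genes is not known. Under 75th percentile scaling, which subtracts 5.45, RAB2A, RAB4B, RAB30 and RAB27A are negative as well as RAB6B and RAB40C.

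Of 13 genes of the ER and the Golgi, 12 were detected in the exosome and 4 in the supernatant. Over all named genes the shares were 66.5% and 22.2%. RAB1A, which drives ER-to-Golgi transport with RAB1B, had the highest bound of all members. Its probes at positions 479, 658 and 1105 gave 1581, 8097 and 9968 in the exosome against 2.03, 6.46 and 2.34 in the supernatant. None of those supernatant signals was well above background, and the bound was at least 575-fold unscaled, or 53.9-fold beyond the median gene. RAB6A, the broadly expressed RAB6 form in Golgi traffic, had a bound of at least 25.6-fold from its 2 detected probes. RAB33B, a Golgi Rab that also binds the autophagy protein ATG16L1, had a bound of at least 22.2-fold. The remaining exosome-alone genes of this group, RAB39B, RAB2B, RAB34, RAB39 and RAB33A, had bounds between 14.4-fold and 2.16-fold, and RAB19 was detected on neither array (2.54 in the exosome against 2.05 in the supernatant).

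All 8 early endosome genes were detected in the exosome and none of them in the supernatant, beside 66.5% and 22.2% of all named genes. A group of 8 is too small to set none apart from 22.2%. RAB5A, which governs the fusion of early endosomes, gave 135, 80.8 and 2572 in the exosome at positions 168, 244 and 1880, against 2.16, 1.93 and 9.21 in the supernatant. The bound was at least 34.2-fold unscaled and 3.20-fold beyond the median gene. Its relatives RAB5C and RAB5B had bounds of at least 70.1-fold and 9.26-fold. RAB24, RAB31, RAB21, RAB22A and RAB20 had bounds between 37.4-fold and 4.54-fold. The highest signal of any undetected Rab probe in the supernatant, 10.8, was that of RAB21 at position 2095, beside 358 in the exosome.

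All 12 genes of recycling and delivery to the surface were detected in the exosome, and RAB25 and RAB4B of them in the supernatant. Over all named genes the shares were 66.5% and 22.2%. RAB11A, the main Rab of recycling endosomes, gave 2211 and 6322 in the exosome against 2.19 and 2.25 in the supernatant, a bound of at least 427-fold unscaled and 40.0-fold beyond the median gene. RAB11B, its close relative, gave 2215 in the exosome against 2.07 in the supernatant (at least 253-fold). RAB13, which acts in the delivery of tight junction proteins, gave 1034, 922, 5612 and 5249 in the exosome against 1.99, 7.68, 1.94 and 4.09 in the supernatant (at least 263-fold).

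RAB35, an endosomal recycling Rab of the plasma membrane, gave 583 and 3219 in the exosome against 2.02 and 7.56 in the supernatant, a bound of at least 156-fold unscaled and 14.7-fold beyond the median gene. RAB14, RAB10, RAB8A, RAB15 and RAB4A followed with bounds between 70.5-fold and 38.8-fold, and RAB8B had 9.71-fold. RAB10 and RAB8A act in the delivery of vesicles from the Golgi to the surface of polarised cells. The bound of RAB8B did not reach the difference of the median gene, so its side of the median gene is not known. In the other groups the same held for RAB3D, RAB5B, RAB7B, RAB12, RAB20, RAB23, RAB32, RAB33A, RAB34, RAB37 and RAB39.

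Of 8 genes of regulated secretion, 4 were detected in the exosome and 2 in the supernatant. The exosome share lay under the 66.5% of all named genes, of which 22.2% were detected in the supernatant. RAB26, which acts in the maturation of secretory granules in exocrine cells, had the highest bound of them. It gave 1441 in the exosome against 2.0 in the supernatant, a bound of at least 165-fold unscaled and 15.4-fold beyond the median gene. RAB3D, known from zymogen granules, had a bound of at least 4.81-fold (48.4 in the exosome against 10.1 in the supernatant). RAB37 had a bound of at least 2.21-fold (21.3 in the exosome against 9.63 in the supernatant).

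The RAB27 pair differed in detection. RAB27A was detected in the exosome by all 3 of its probes, at positions 219, 1180 and 2809, with 33.4, 158 and 128 in the exosome against 1.85, 13.4 and 2.59 in the supernatant. RAB27B had 1 probe, with 11.4 in the exosome against 2.09 in the supernatant, and was not well above background on either array. RAB3A and RAB3B, Rabs of synaptic and endocrine exocytosis, were also detected on neither, with 2.53 and 2.64 in the exosome against 1.90 and 2.02 in the supernatant.

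Of 9 genes of late endosomes, lysosomes and related organelles, 6 were detected in the exosome and none of them in the supernatant. The exosome share was close to the 66.5% of all named genes. A group of 9 is too small to set none apart from the 22.2% detected in the supernatant. RAB9A, which returns receptors from late endosomes to the Golgi, gave 325 and 2731 in the exosome against 2.13 and 2.09 in the supernatant, a bound of at least 108-fold. RAB7A, which governs late endosome maturation and fusion with lysosomes, gave 150, 1807 and 2164 in the exosome against 10.1, 2.36 and 2.41 in the supernatant. Its bound was at least 91.1-fold unscaled and 8.53-fold beyond the median gene. RAB7L1, RAB32, RAB12 and RAB7B had bounds between 52.0-fold and 3.82-fold.

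RAB9B, RAB38 and RAB42 of that group were detected on neither array. RAB9B gave 8.78 and 9.69 in the exosome against 2.78 and 6.89 in the supernatant. RAB38, which serves melanosomes and other lysosome-related organelles together with RAB32, gave 2.91 in the exosome against 2.04 in the supernatant. RAB42 gave 3.14 in the exosome against 2.57 in the supernatant.

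Of the 5 members outside these groups, 4 were detected in the exosome, and RAB40C of them in the supernatant. Over all named genes the shares were 66.5% and 22.2%. RAB18, which sits on the ER and on lipid droplets, gave 1354 and 10208 in the exosome against 2.53 and 1.82 in the supernatant. Its bound was at least 425-fold unscaled and 39.8-fold beyond the median gene, the third highest after RAB1A and RAB11A. RAB28 and RAB23, both known from cilia, had bounds of at least 51.1-fold and 5.07-fold. RAB40B was detected on neither array, with 2.68 and 2.64 in the exosome against 2.17 and 2.0 in the supernatant.

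**Figure D4:**
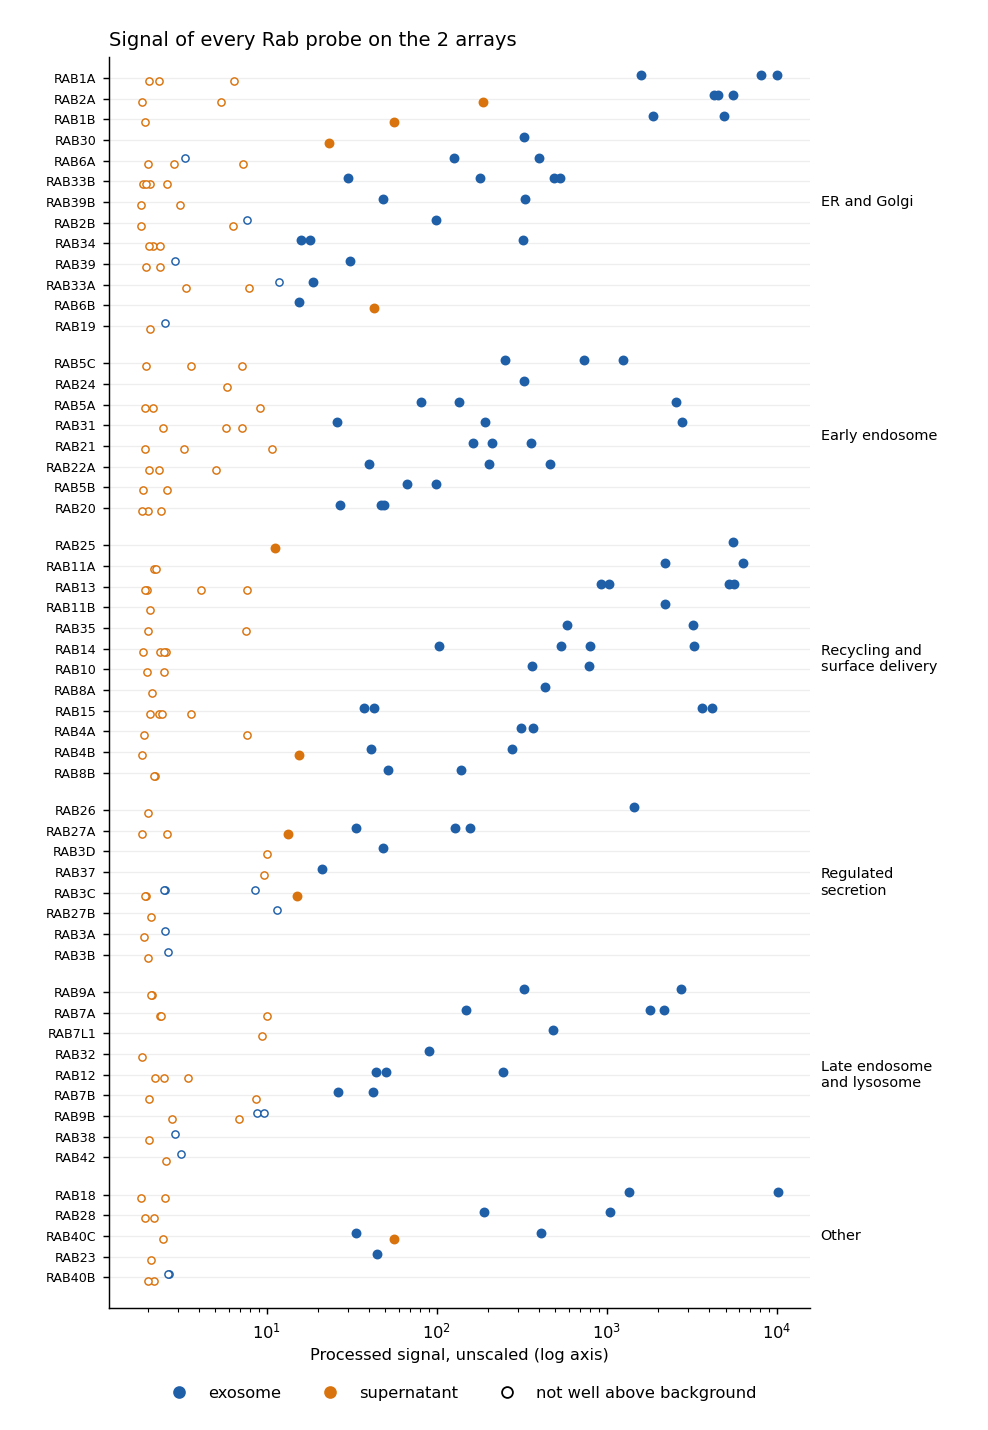
Processed signal of each of the 114 Rab probes, unscaled, on a log axis (horizontal), with genes as rows in role groups ordered by exosome signal; blue points are the exosome array, drawn above the orange points of the supernatant array in each row, and open points were not well above background. Of the orange points 9 are filled. RAB6B is the only gene with a probe filled on both arrays whose blue point lies left of its orange one (15.6 in the exosome against 42.7 in the supernatant). In the RAB40C row a filled blue point at 33.7 also lies left of the filled orange one at 56.2, but these are different probes.

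Of the 34 multi-probe Rab genes with a detected probe in the exosome, 30 had all their probes detected (88.2%, against 57.3% of other named genes). In the supernatant 6 multi-probe Rab genes had a detected probe, and in each of them it was a single probe (100%, against 79.9% of other named genes). These 6 were RAB1B, RAB2A, RAB27A, RAB3C, RAB40C and RAB4B, and the other 3 genes detected there had 1 probe each. For RAB1B the probe at position 1846 gave 1864 in the exosome against 1.93 in the supernatant, beside the 4879 against 56.2 of the probe at position 1769. For RAB40C the probe at position 819 gave 33.7 in the exosome against 2.48 in the supernatant.

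For RAB2A the probe at position 320 gave 4508 in the exosome against 5.38 in the supernatant, where it was not well above background, beside the 5497 against 187 of the probe at position 623. The measured RAB2A difference rests on that 1 probe.

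The motif CCCTC, looked for after the values had been seen, was in 4 of the 9 Rab probes detected in the supernatant (RAB25, RAB1B, RAB2A and RAB40C) and in 4 of the 105 others (3.81%). Among all other probes it was in 14.8% of those detected in the supernatant and in 3.86% of those not detected there, and in 5.29% of all. Its reverse complement GAGGG was in 0 of the 9 and in 5 of the 105. Among all other probes GAGGG was in 6.73% of those detected in the supernatant and in 4.66% of those not detected there. In RAB25 and RAB1B the motif overlaps a run of 5 C, which 2 of the 9 probes and 1 of the 105 held. Among all other probes 10.3% of those detected in the supernatant and 2.15% of those not detected held such a run. The match is a description of the probes, and its part in the supernatant signals was not tested. RAB4B, RAB30, RAB27A, RAB6B and RAB3C were detected in the supernatant without the motif.

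RAB6A had the widest range of differences between its probes, 8.25 log2 units, so its 3 probes are shown (build HGSC Btau_3.1, no capitals).
RAB6A, position 1246, chr15:52702113-52702172, minus strand: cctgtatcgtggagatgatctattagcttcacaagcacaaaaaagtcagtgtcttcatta
RAB6A, position 2211, chr15:52701148-52701207, minus strand: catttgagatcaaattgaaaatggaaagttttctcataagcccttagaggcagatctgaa
RAB6A, position 3797, chr15:52699562-52699621, minus strand: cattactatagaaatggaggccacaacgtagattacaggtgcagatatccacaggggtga

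They gave 399, 126 and 3.30 in the exosome against 2.87, 2.0 and 7.24 in the supernatant. The first pair was well above background in the exosome and the probe at position 3797 on neither array, so the width of the range rests on a probe with no measured level. That probe, with those of RAB6B and RAB3C at position 2020, made up the 3 Rab probes that were brighter in the supernatant before scaling. RAB15 had the next widest range, 7.17. Its probes at positions 398 and 731 gave 37.6 and 43.1 in the exosome, and its pair at position 3163 gave 3617 and 4167, against 2.07, 3.61, 2.33 and 2.43 in the supernatant. The probes of that pair share 59 of 60 bases and differ by G58A, counted from 1 at the 5′ end with the base of the first probe given first.

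Some probes have a position that spans more than their own 60 bases, as a probe across a splice junction does. There were 17 such Rab probes in 16 genes, with spans of 150 to 33270 bases. In the exosome 14 of the 17 were detected (82.4%, against 52.1% of other probes of this kind and 85.1% of all Rab probes). In the supernatant 0 of the 17 were detected, against 7.66% of other probes of this kind. With 17 probes, 0 cannot be set apart from a share of 7.66%. The 9 Rab probes detected in the supernatant were 8 with a span of 60 bases and RAB1B with no position. Of all other probes detected in the supernatant, 9.0% were of the longer-span kind.

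Of the 119 genes that act on Rabs, 101 were detected in the exosome (84.9%) and 23 in the supernatant (19.3%), beside 66.5% and 22.2% of all named genes. Of the 23 with a difference, 8 lay 2-fold or more over the median gene and 7 that far under it (37.7% and 36.7% of all measured genes), with a median of -0.06.

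The machinery common to all Rabs, which attaches their lipid tail and carries them through the cytosol, was detected in the exosome for 8 of 8 genes and in the supernatant for 3. All 3 lay over the median gene by 2-fold or more. GDI2, which extracts GDP-bound Rabs from membranes, gave 13600 in the exosome against 22.9 in the supernatant on the probe detected on both, 5.80 above the median gene. RABAC1, a Golgi protein that binds prenylated Rabs, gave 11880 in the exosome against 24.0 in the supernatant (5.53 above). RABGGTA, a subunit of the enzyme that adds the lipid, gave 24119 in the exosome against 683 in the supernatant (1.72 above, close to the SD of 1.71 between probes of 1 gene). Each of these 3 differences rests on 1 probe. Averaged on the log2 scale over the probes detected in the exosome, the exosome signals were 1135 for GDI2, 8132 for RABAC1 and 796 for RABGGTA. RABGGTB, the other subunit, was detected in the exosome alone with a bound of at least 146-fold.

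Exchange factors, which load Rabs with GTP, were detected for 22 of 28 genes in the exosome and 8 in the supernatant, with 0 genes over the median gene by 2-fold or more and 3 that far under it. ALS2CL and RAB3IL1 had the highest differences, 0.37 and 0.08 relative to the median gene. HPS1, part of the exchange factor for RAB32 and RAB38, gave 26.4 in the exosome against 36.1 in the supernatant (-3.87), and MON1B, a relative of the RAB7 exchange factor subunit MON1A, gave 44.7 in the exosome against 33.3 in the supernatant (-2.99). RAB3IP, an exchange factor for RAB8, was detected in the exosome alone with a bound of at least 466-fold.

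GTPase-activating proteins, which switch Rabs off, were detected for 32 of 36 genes in the exosome and 7 in the supernatant, with 3 above and 2 below by that size. TBC1D14 gave 1490 in the exosome against 11.7 in the supernatant (3.58 above the median gene), and TBC1D10B gave 1341 in the exosome against 13.1 in the supernatant (3.26 above). TBC1D9B and TBC1D22B had the lowest differences, -1.66 and -1.49. RABGAP1L was detected in the exosome alone with a bound of at least 518-fold.

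Effectors, which bind the GTP form, were detected for 39 of 47 genes in the exosome and 5 in the supernatant, with 2 above and 2 below. GORASP2, a Golgi stacking protein that binds RAB2, had 1.66, and SYTL4, a RAB27 effector of secretory granules, had 1.18 relative to the median gene. MICALL1, which binds RAB8 and RAB35 on recycling endosomes, gave 18.0 in the exosome against 25.2 in the supernatant (-3.90). MICAL1 gave 19.97 in the exosome against 11.2 in the supernatant (-2.58). BICD2, a dynein adaptor that binds RAB6, was detected in the exosome alone with a bound of at least 176-fold. Of these regulators and effectors, HPS1 and MICALL1 were, like RAB6B, brighter in the supernatant before scaling (-0.45 and -0.48). Each value rests on 1 probe, of 3 for HPS1 and of 4 for MICALL1, while RAB6B has 1 probe in all. Averaged on the log2 scale over the probes detected in the exosome, the exosome signals were 37.9 for HPS1 and 99.9 for MICALL1.

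Other families of membrane traffic are given for scale. SNAREs and syntaxin-binding proteins, which fuse vesicles with their targets, were detected for 45 of 48 genes in the exosome (93.8%) and 12 in the supernatant (25%). COPI and COPII coat genes were detected for 23 of 23 in the exosome and 3 in the supernatant (13.0%). ARF and ARL GTPases were detected for 17 of 20 in the exosome (85%) and 3 in the supernatant (15%). The median exosome signal of the detected genes was 374 for the SNAREs, 398 for the coats and 334 for the ARF group, beside 270 for the Rab genes. No test of a difference between families was possible.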

How the data were processed

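Each fraction was measured on 1 Agilent 1-colour bovine array, with 100 ng of Cy3-labelled pooled RNA, per the labels' protocols. As intensity, the authors deposited the processed signals of Agilent Feature Extraction 10.7.3.1, with background subtracted within each array, per the file headers. At the Rab probes, the authors' deposited log2 values matched the logarithm of these signals with a largest deviation of 1.04e-06, so that table holds no further scaling. Detection is the software's deposited well-above-background flag. What else was done upstream is not given in the sources used here.

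Controls were dropped, as were outlier spots (5 for exosome, 2 for supernatant), and spots of a probe were averaged, with python 3.11.15, pandas 2.3.3 and numpy 2.4.6. No spot was saturated. A gene's difference is the mean log2 exosome minus supernatant signal over its probes detected on both arrays. It is reported unscaled and relative to the median gene, which no constant scaling moves. A size of 2-fold was used for counts. With 1 array per fraction there is no test, and precision is limited by having so few arrays. The calculation was tested on simulated data. Normexp correction in an alternative used limma 3.58.1 in R 4.3.3.

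The members, role groups and gene lists were chosen with earlier results of these data known. Values are given in full for members measured on both arrays or detected in the supernatant alone, for the 8 brightest detected in the exosome alone and for RAB5A, RAB7A, RAB11A, RAB27A, RAB27B and RAB35. In each regulator list the 2 highest and 2 lowest differences and the brightest exosome-alone gene are named. Sequences were to be those of probes brighter in the supernatant and of the member with the widest range between probes; the other printed sequences, the other genes and probes named and the motif were chosen after the values were seen. Positions are those of the files. Some RAB2A probe data are not reported here. Alternatives covered detection, dim probes, scaling, background, probe choice, outlier spots, the deposited table and gene names.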

Additional observations from a re-analysis of the deposited data

Results flagged for a closer look

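Some probes carry a description as a Rab but another name in the files, so they are outside the 55 genes. The probe described as RAB17, an epithelial Rab of transcytosis, gave 243 in the exosome against 12.5 in the supernatant, well above background on both arrays. Those described as RAB2A, RAB8A, RAB4A and RAB35 gave 5874, 1388, 579 and 39.3 in the exosome and were not well above background in the supernatant. The probe described as RAB35 is placed on chromosome 2, whereas the RAB35 member probes are placed on chromosome 17. Those described as RAB36 and RAB44 were detected on neither array.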

How the results depend on the processing

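Detection in the exosome stayed between 40 and 50 of the 55 Rab genes under every alternative run, where the share of all named genes ran between 46.3% and 82.2%. Detection in the supernatant depended on the rule: 9 genes became 35 with the software's weaker flag (65.4% of all named genes), 4 with a floor 4 times the lowest detected signal (8.43%), and 3 where a gene needed every probe detected (6.21%). The median difference of 0.57 relative to the median gene was 1.85 under the weaker flag, 1.53 with the stricter floor (3 genes), 2.97 with no filter on dim probes and 0.18 with normexp correction. Not set against the median gene, it was 3.99 unscaled, 1.72 with spike-in scaling and -1.57 with the 75th percentile over all probes. The 3 of 8 genes at least 2-fold above became 18 of 35 (weaker flag), 38 of 55 (no filter) and 1 of 3 (all probes detected). Not set against the median gene, the count was 7 of 8 (unscaled), 6 of 8 (spike-in) and 1 of 8 (75th percentile). The 1 of 8 below became 8 of 35 (weaker flag), 0 of 3 (stricter floor) and 11 of 55 (no filter). Not set against the median gene, it was 5 of 8 (75th percentile). Under the main rule 37.7% of all measured genes lay that far above and 36.7% that far below. Unscaled, 82.7% of all measured genes were at least 2-fold brighter in the exosome. Shares over all genes for the other alternatives are not given here. The median log2 exosome signal of 8.08 was 7.73 (weaker flag), 8.72 (stricter floor), 8.45 (normexp) and 8.76 (brightest probe). The cause of these changes was not tested beyond the number of genes each rule admits. Relative to the median gene, normexp put RAB25 at 4.15, RAB2A at 2.35, RAB4B at 0.14, RAB27A at -0.54 and RAB6B at -2.61. The weaker flag put RAB2A at 3.99. With no filter RAB25 was at 6.31, RAB1B at 5.54, RAB2A at 5.95, RAB4B at 1.68, RAB30 at 1.18, RAB27A at 1.81, RAB40C at 0.68 and RAB6B at -4.09. Quantile normalization left 2 genes at least 2-fold above, with RAB2A at 0.98, and put RAB6B at -3.41. Keeping outlier spots, the deposited table and updated gene names left these counts as they were and the median difference between 0.57 and 0.58. No paired analysis was possible because there is 1 array per fraction. The dim supernatant signals set the precision, since most Rab genes have only a bound there.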

Other observations

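Markers of the milk-secreting epithelium measured on both arrays, 10 of 13, all lay over the median gene by 2-fold or more, with a median difference of 7.06. Beta-casein (CSN2) gave 206692 in the exosome against 126 in the supernatant. Leukocyte markers measured on both arrays, 10 of 15, had a median of -0.98, with 1 that far over it and 5 that far under. CD3D, a T cell receptor subunit, gave 888 in the exosome against 2437 in the supernatant.

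The array holds probes from designs with differing names. Of the Rab probes whose name contains a P, 2 of 80 were detected in the supernatant (2.5%), and of those without it 7 of 34 were (20.6%). Over all other probes the shares were 11.2% and 17.0%. The GC content of the 9 Rab probes detected in the supernatant had a median of 45%, against 41.7% for the 105 others. Over all other probes the medians were 45% for those detected in the supernatant and 43.3% for those not detected there.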
